A study of Mus musculus with 2 samples.

Results

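T cell receptor V genes are the Trbv and Trav rows of the count matrices, the variable segments of the receptor's beta and alpha chains. The members described here are the rows with at least 20 UMIs (unique molecular identifiers, 1 per captured transcript) over both libraries. That rule kept 41 of 163 Trbv and Trav rows, among 32285 gene rows in all, with 10 of 35 Trbv rows and 31 of 128 Trav rows. The members held 2386 of the 2814 UMIs on such rows (84.8%). Just under the threshold lay Trav13-4-dv7, Trav2 and Trav3-1 with 19 UMIs each, and just above it Trav13d-1 and Trav4-3 with 20 and Trbv17 with 22. All 41 members are annotated as functional V genes; none is a pseudogene.

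The cells were Tregs, the Foxp3-dependent CD4 cells that restrain immune responses, isolated from tumours of C57BL/6 mice 8 to 12 weeks old, and were profiled with the 10x Genomics 3' v2 kit after a Percoll gradient, magnetic selection and a fluorescence sort. The WT library carries the genotype label JMJD1CWT, and the cKO library the label JMJD1CTregcKO, a conditional knockout in Tregs. Jmjd1c encodes a JmjC-domain protein of the histone demethylase family. The labels give neither the tumour model, the number and sex of the animals, the Cre driver nor the exons removed. Each group has 1 library, so no test across animals exists. All intervals are 95% intervals that cover counting error only, exact Clopper-Pearson for a share and Newcombe for a difference between shares, and no difference below was checked against replicates.

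In a developing T cell, a Trbv segment is joined to a D and a J segment, and a Trav segment to a J segment. Each joined V segment is transcribed with a constant gene (Trbc1 or Trbc2 for beta, Trac for alpha), so that cells of a clone share their V genes. A beta chain is normally expressed from a single allele, while a second alpha chain is common. A 3' library captures transcripts near their end, far from the V segment, so most T cells are expected to show their constant gene and no V gene, and a cell without a V UMI is not a cell without a receptor.

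The segments can be told apart only by short stretches of sequence. The 4 Trbv genes that lead in Tregs are shown by the last 60 bases of their reference transcripts (GENCODE M21, build GRCm38/mm10, 5′ to 3′), with the codon of the conserved cysteine that opens the joined region in capitals. They lie on chromosome 6, plus strand: Trbv3 at chr6:41048290-41048828, Trbv19 at chr6:41178375-41179048, Trbv12-2 at chr6:41118851-41119364 and Trbv2 at chr6:41047340-41047995.
Trbv3: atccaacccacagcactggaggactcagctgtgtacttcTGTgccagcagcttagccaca
Trbv19: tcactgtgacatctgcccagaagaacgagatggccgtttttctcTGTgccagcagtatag
Trbv12-2: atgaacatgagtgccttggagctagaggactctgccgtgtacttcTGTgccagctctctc
Trbv2: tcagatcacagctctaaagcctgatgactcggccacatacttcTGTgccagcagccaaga

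The Trav locus on chromosome 14 holds near-identical copies, some with the letter d or n in their names. The next windows of 60 bases are those in which each set differs most, with the differing bases in capitals. Trav14-3 and its copy Trav14d-3-dv8 differ at 8 of 260 aligned bases.
Trav14-3: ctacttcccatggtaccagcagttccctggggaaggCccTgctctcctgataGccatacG
Trav14d-3-dv8: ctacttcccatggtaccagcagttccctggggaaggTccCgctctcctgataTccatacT
Trav6-5 and Trav6d-5 differ at 11 of 260 bases, 7 of them in this window.
Trav6-5: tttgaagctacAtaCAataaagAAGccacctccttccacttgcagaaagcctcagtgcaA
Trav6d-5: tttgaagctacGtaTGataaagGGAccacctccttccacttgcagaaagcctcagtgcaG
Fewer bases still set Trav16 apart from its copies: Trav16n differs from Trav16 at 4 of 260 and Trav16d-dv11 at 5. The window shown is identical in Trav16n and Trav16d-dv11, so it does not tell those copies from each other.
Trav16: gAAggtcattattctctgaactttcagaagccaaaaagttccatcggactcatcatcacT
Trav16n: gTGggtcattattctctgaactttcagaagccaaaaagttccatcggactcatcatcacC
Trav16d-dv11: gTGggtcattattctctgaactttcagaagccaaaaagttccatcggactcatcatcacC

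How well a row can be seen went with how much of its sequence is its own. All 22 Trbv rows annotated as V genes shared no 80-base window with another V gene, and all 22 had UMIs. Of the 108 such Trav rows, 34 had no window of their own and held 1 UMI in all. The 19 rows with up to 50% of windows of their own held 312 UMIs, and the 55 rows above 50% held 1671. Trav6d-7 and Trav6n-7 were identical over 260 bases and both at 0, while Trav6-7-dv9, which differs from them at 6 of 270 bases, had 215 UMIs. Trav11, the segment of the invariant natural killer T cell receptor, was identical to Trav11d over 260 bases and both had 0 UMIs. Identity did not always go with 0 UMIs. Trav7-2 and Trav7d-2 were also identical over 260 bases, and Trav7d-2, with 0.388% of windows of its own, had 18 UMIs against 0 for Trav7-2. The absence of Trav11 UMIs does not show that those natural killer T cells were absent. A value for a Trav row is therefore uncertain wherever a near copy could take or share its reads; how the authors' counting treated a read that matches several rows is not given in the sources used here.

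**Figure D1:**
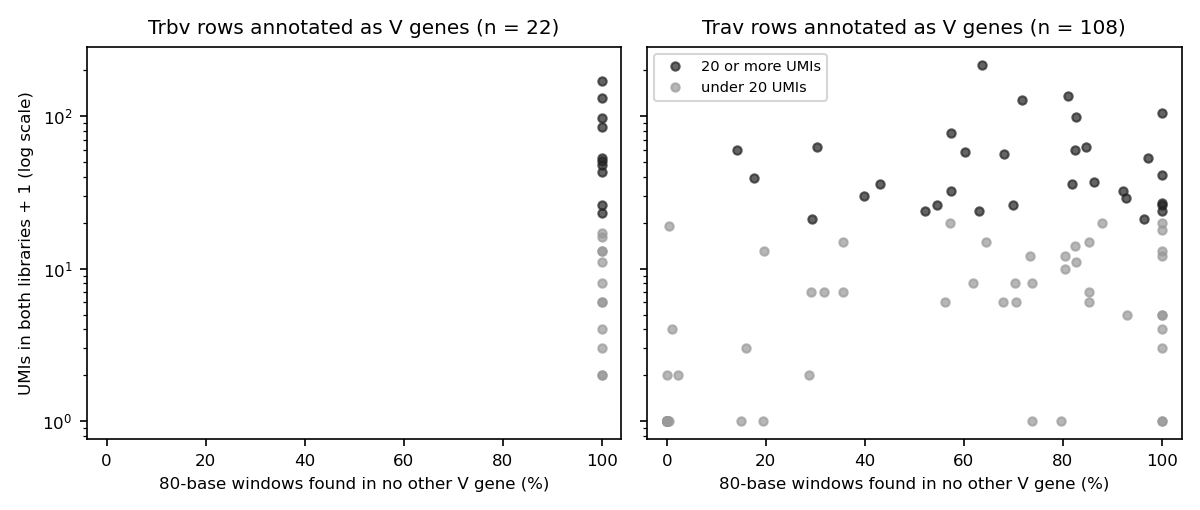
UMIs over both libraries plus 1 (vertical axis, log scale) against the percentage of 80-base windows found in no other V gene (horizontal axis), 1 point per row annotated as a V gene, dark where the row has 20 or more UMIs. The 22 Trbv points all sit at 100%, and the Trav points at 0% lie at or next to the foot of the axis. Trav7d-2, at 0.388%, lies above them with 18 UMIs.

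The libraries stand apart in ways the genotype does not explain. In Tregs Xist was at 903 CPM (UMIs scaled to a common total) in WT and 1.37 in cKO, and the Y-linked Ddx3y at 0 and 84.8 CPM, genes chosen after their values were seen, so that sex and genotype cannot be told apart. Jmjd1c itself was at 88.9 CPM (86.0 to 91.9) in WT Tregs and 74.1 (70.8 to 77.5) in cKO Tregs; 3' tags outside a deleted part check nothing. Of 3842 WT and 4026 cKO cells kept, 3306 and 2945 were Tregs by the rule (Foxp3, Il2ra, Ikzf2 and Ctla4 sum to at least 6 UMIs), and their median depths were 8667 and 6530 UMIs. The 6 Treg markers that the rule did not use (Tnfrsf18, Tnfrsf4, Izumo1r, Ikzf4, Ccr8, Tnfrsf9) all had UMIs in both, at 5780 and 7596 CPM summed. All 7 macrophage markers had UMIs in Tregs too, at 229 and 342 CPM summed, and their part in the results below was not tested. The CD8 rule (Cd8a and Cd8b1 sum to at least 3) took 196 WT and 402 cKO cells, deeper than Tregs at 19095.5 and 10641.5 UMIs per cell in the median. Of these, 180 WT and 198 cKO cells also met the Treg sum of 6, and 66.1% and 39.4% of those had a Cd4 UMI. That left 16 WT and 204 cKO CD8 cells with low Treg markers, so the whole class goes against its name in WT and values are given for both kinds. The libraries shared 2 barcodes.

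V genes were detected less often in the cKO than in the WT library, for both chains. In Tregs a Trbv member had a UMI in 383 of 3306 WT cells, 11.6% (10.5 to 12.7), and in 125 of 2945 cKO cells, 4.24% (3.55 to 5.04). The difference was -7.34 percentage points (-8.66 to -6.03). A Trav member had a UMI in 655 WT Tregs, 19.8% (18.5 to 21.2), and in 315 cKO Tregs, 10.7% (9.60 to 11.9), a difference of -9.12 points (-10.9 to -7.35). The intervals of the 2 libraries did not overlap for either chain.

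Depth moved with these shares. With each cell thinned to 4000 UMIs and 97 WT and 336 cKO Tregs left out as shallower, Trbv detection came to 4.87% in WT Tregs and 2.20% in cKO Tregs, a difference of -2.67 points (-3.62 to -1.74). Trav was detected in 9.46% and 6.53%, a difference of -2.93 points (-4.34 to -1.56). The ratio of WT to cKO was 2.73 for Trbv with all UMIs and 2.22 after thinning, and 1.85 and 1.45 for Trav. At equal depth the direction thus stayed, at a smaller size. In macrophage-marker cells without a CD3 UMI, which should lack a receptor, Trbv was found in 0 of 39 WT cells (at most 7.69% by a count of 3) and 0 of 199 cKO cells (at most 1.51%), and Trav in 0 and 1 of them. Those cells had medians of 14844 and 12428 UMIs, deeper than the Tregs.

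The constant genes did not follow the V genes. In Tregs Trac, the alpha constant gene, was at 1004 CPM in WT and 1237 in cKO, and Trbc2 at 940 and 1121, while Trbc1 was at 631 and 557. Per 1000 UMIs of Trbc1 and Trbc2, Trbv members had 7.05 UMIs in WT and 3.19 in cKO Tregs. Per 1000 Trac UMIs, Trav members had 24.0 and 15.2. V gene UMIs were thus fewer in cKO Tregs also against the constant gene of the same chain.

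In CD8 T cells the shares were 18.9% (37 of 196, 13.7 to 25.1) in WT and 10.9% (44 of 402, 8.07 to 14.4) in cKO for Trbv, and 22.4% (16.8 to 28.9) and 13.9% (10.7 to 17.7) for Trav. The WT class was also the deeper. After thinning the shares were 5.28% and 4.11% for Trbv, a difference of -1.17 points (-5.41 to 2.39), and 6.48% and 6.41% for Trav, a difference of -0.07 points (-5.14 to 3.77). No difference in CD8 cells was detectable at equal depth. In CD8 cells with low Treg markers, Trbv was in 1 of 16 WT and 19 of 204 cKO cells, 6.25% (0.158 to 30.2) and 9.31% (5.70 to 14.2), the opposite direction from the whole class. In CD8 cells with high Treg markers it was 20% (36 of 180) and 12.6% (25 of 198). Trav was in 3 of 16 and 24 of 204 CD8 cells with low Treg markers, and in 41 of 180 and 32 of 198 with high ones.

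**Figure D2:**
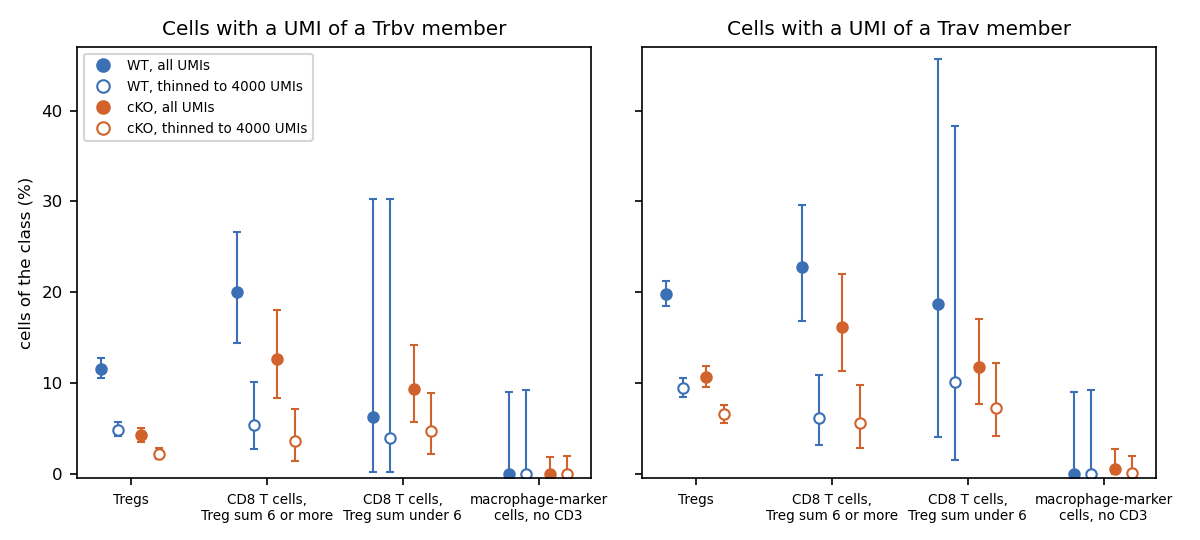
Cells with a UMI of a Trbv member (left) or a Trav member (right) as a percentage of each class, by library, with all UMIs (filled) and after thinning to 4000 UMIs per cell (open); bars are exact 95% intervals of counting error. WT Tregs lie at 11.6% and 19.8% and cKO Tregs at 4.24% and 10.7% with all UMIs, and both libraries are at or near 0 in macrophage-marker cells.

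The usage of a V gene is the share of cells with that gene among cells that show exactly 1 gene of its family. In Tregs 378 WT and 120 cKO cells showed 1 Trbv gene. Trbv3 (the older Vβ16) led in WT with 117 cells, 31.0% (26.3 to 35.9), and had 20 cells, 16.7% (10.5 to 24.6), in cKO, a difference of -14.3 points (-21.7 to -5.41). Trbv19 (Vβ6) had 76 WT cells, 20.1% (16.2 to 24.5), and 25 cKO cells, 20.8% (14 to 29.2), and led in cKO; its difference of 0.73 points ran from -6.92 to 9.66. Trbv20 (Vβ15) showed the largest gain among the genes with at least 30 such cells. It had 14 WT cells, 3.70% (2.04 to 6.14), and 18 cKO cells, 15% (9.14 to 22.7), a difference of 11.3 points (5.47 to 18.9).

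Among the other leading Trbv genes the shares were closer. Trbv12-2 (Vβ5.1) had 10.3% in WT (39 cells) and 16.7% in cKO (20 cells), a difference of 6.35 points (-0.25 to 14.5). Trbv2 (Vβ4) had 10.3% (39 cells) and 5.83% (7 cells), a difference of -4.48 points (-9.06 to 1.83). Trbv1, Trbv13-2 and Trbv13-1 differed by -0.48, 1.15 and -1.65 points, each with an interval that spans 0. At the low end, both outside the naming rule and chosen after their values were seen, Trbv16 had 7 WT and 8 cKO cells, 1.85% and 6.67%, and Trbv17 had 13 WT cells and 0 cKO cells. Over all cells Trbv17 had 19 UMIs in WT and 3 in cKO, so it passed the 20-UMI rule mainly through WT.

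Of the 10 Trbv members, 2 had at least 2-fold higher usage in cKO Tregs (Trbv16 and Trbv20) and 1 at least 2-fold lower (Trbv17), which is 20% and 10% of the genes tested, all of them members. The effective number of Trbv genes, the inverse Simpson index that counts equally used genes, was 5.86 (5.13 to 6.58) in WT and 7.47 (6.37 to 8.57) in cKO Tregs. Without Trbv3 it was 6.34 and 6.53, a difference of 0.19 (-1.25 to 1.63). Over all Trbv rows, in place of the members, it was 6.67 and 10.7, a difference of 3.98 (1.77 to 6.20), so the size of the difference depends on which genes are counted.

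In CD8 cells Trbv12-2 led in WT with 12 of 35 cells, 34.3% (19.1 to 52.2), and had 9 of 44 cells, 20.5% (9.80 to 35.3), in cKO. Trbv2 led in cKO with 11 cells, 25.0% (13.2 to 40.3), against 4 WT cells, 11.4% (3.20 to 26.7). Trbv13-1 had 5 cells in each library, Trbv19 4 WT and 3 cKO cells, and Trbv20 3 and 4. Trbv3, the leader in WT Tregs, had only 2 cells in each. Trbv16 had 0 WT and 6 cKO cells, a difference of 13.6 points (1.38 to 26.7). Among CD8 cells with high Treg markers Trbv16 had 0 of 34 WT and 2 of 25 cKO cells, a difference of 8 points (-3.68 to 25.0). In CD8 cells 2 of 10 Trbv genes (20%) had at least 2-fold higher usage in cKO and 0 lower. Of the 35 WT cells, 34 had high Treg markers, so usage in CD8 cells with low Treg markers could be read in cKO only: Trbv2 and Trbv16 had 4 of 19 cells each, and Trbv12-2 and Trbv13-1 3 each. The effective number in CD8 cells was 6.26 (3.19 to 9.33) in WT and 7.45 (4.96 to 9.94) in cKO, with wide overlap.

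**Figure D3:**
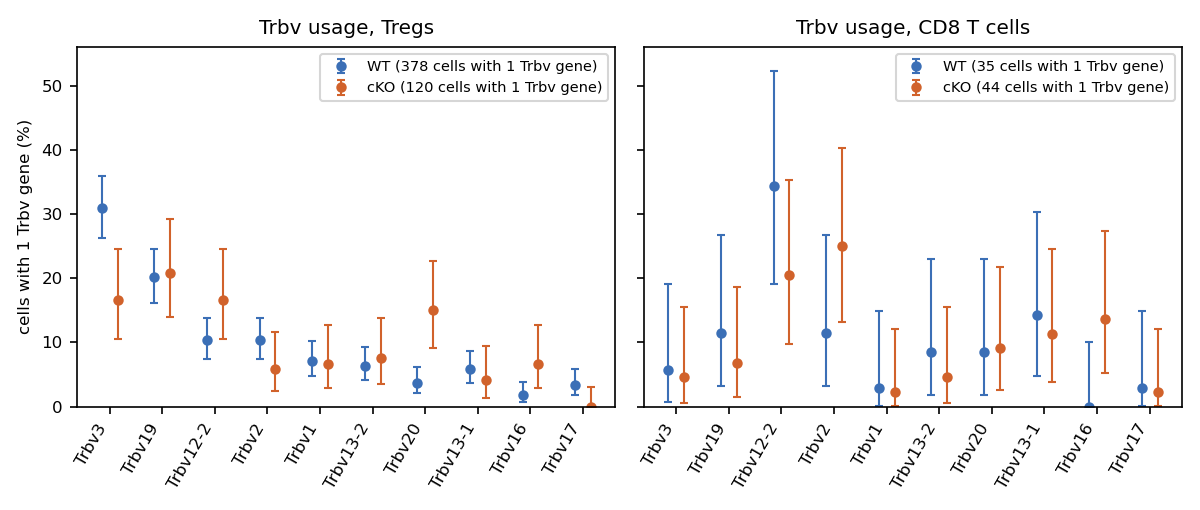
Share of each Trbv gene among cells that show exactly 1 Trbv gene, in Tregs (left) and CD8 T cells (right), by library; bars are exact 95% intervals of counting error. In Tregs Trbv3 is higher in WT (31.0% against 16.7%) and Trbv20 in cKO (15% against 3.70%). In the whole CD8 class Trbv16 has 0 WT and 6 cKO cells and the other differences have intervals that span 0. Among CD8 cells with high Treg markers, not drawn, the interval for Trbv16 also spans 0 (-3.68 to 25.0 points).

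In Tregs 594 WT and 303 cKO cells showed 1 Trav gene. Trav6-7-dv9 (chr14:53709902-53710419) led in WT with 74 cells, 12.5% (9.91 to 15.4), and had 19 cKO cells, 6.27% (3.82 to 9.62). Trav16 had 61 WT cells, 10.3% (7.95 to 13), and 9 cKO cells, 2.97% (1.37 to 5.56). Trav13-1 had 57 WT cells, 9.60%, and 13 cKO cells, 4.29%, and Trav19 had 47 and 10 cells, 7.91% and 3.3%. All 4 were lower in cKO, with differences between -4.61 and -7.30 points and intervals below 0.

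Trav6-5 and Trav6-3 showed the lowest ratios. Trav6-5 had 47 WT cells, 7.91% (5.87 to 10.4), and 2 cKO cells, 0.66% (0.08 to 2.36). Trav6-3 had 37 WT cells, 6.23% (4.42 to 8.48), and 1 cKO cell, 0.33% (0.00836 to 1.83). Both have near copies: 30.4% and 14.2% of their windows are their own. Over all cells Trav6-5 and Trav6-3 had 59 and 58 UMIs in WT and 3 and 1 in cKO, and so became members through the WT library. Trav3-3 led in cKO with 27 cells, 8.91% (5.96 to 12.7), against 23 WT cells, 3.87% (2.47 to 5.75). Trav14-3 had 27 WT and 9 cKO cells, 4.55% and 2.97%, a difference of -1.58 points (-4.01 to 1.36). Of 31 Trav members, 11 had at least 2-fold higher usage in cKO Tregs and 7 at least 2-fold lower, 35.5% and 22.6% of the genes tested. The effective number of Trav genes was 16.0 (14.4 to 17.5) in WT and 23.8 (20.9 to 26.8) in cKO Tregs.

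The members with the letter d in their names moved together. This grouping was chosen after the values were seen. The 6 d members (Trav7d-4, Trav6d-5, Trav13d-1, Trav8d-2, Trav16d-dv11, Trav14d-3-dv8) were the only gene of 19 of 594 WT Tregs, 3.20% (1.94 to 4.95), and of 81 of 303 cKO Tregs, 26.7% (21.8 to 32.1). The difference was 23.5 points (18.6 to 28.9). All 6 had higher usage in cKO, by ratios of 4.46 to 23.5, beside 9 of the 22 members without a letter and 2 of the 3 with an n. The 20-UMI rule bears on this count: Trav7d-4, Trav8d-2, Trav13d-1, Trav16d-dv11 and Trav6d-5 had 1 to 6 UMIs in WT and 18 to 30 in cKO, and so became members through the cKO library. Over all Trav rows, with no such rule, the rows with a d held 4.09% of WT and 24.8% of cKO single-gene Tregs, a difference of 20.7 points (16.3 to 25.4). The 22 members without a letter held 89.4% of WT and 64.0% of cKO cells, and the 3 n members 7.41% and 9.24%.

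The d members come next to each other in the order of the members along chromosome 14, from Trav7d-4 at chr14:52769753-52770392 to Trav14d-3-dv8 at chr14:53078452-53079045. As the only Trav gene, Trav14d-3-dv8 had 11 WT cells, 1.85% (0.928 to 3.29), and 25 cKO cells, 8.25% (5.41 to 11.9); in the same Tregs its copy Trav14-3 was carried by 34 WT and 9 cKO cells. Trav6d-5 was carried by 1 WT and 9 cKO Tregs, and Trav6-5 by 51 and 3. Trav13d-1 was carried by 1 and 12, and Trav13-1 by 67 and 14. In each of these pairs the row with the d had more carriers and the row without it fewer in cKO, where all Trav carriers were also fewer. By usage Trav6-5 and Trav13-1 were lower in cKO, while the difference of Trav14-3 had an interval that spans 0. Trav7d-4 (2 WT and 19 cKO Tregs) differs from Trav7-4 (15 and 9) at 1 of 260 bases, and by usage Trav7-4 was 2.36% in WT and 2.97% in cKO, and Trav16d-dv11 had 3 and 7 carriers. Trav8d-2, with 92.2% of windows of its own, had 1 and 11 carriers, while Trav8-2, no member, had 3 and 0. The other d members had fewer windows of their own. Trav14d-3-dv8 had 84.6%, Trav6d-5 69.9%, Trav16d-dv11 52.2%, Trav7d-4 39.8% and Trav13d-1 29.3%.

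The direction of the d members was the same in CD8 cells, on few cells: 2 of 35 WT cells, 5.71% (0.700 to 19.2), and 11 of 53 cKO cells, 20.8% (10.8 to 34.1). With high Treg markers it was 1 of 32 and 7 of 29 cells. In CD8 cells with low Treg markers it was 1 of 3 WT and 4 of 24 cKO cells, too few in WT to compare. The libraries also differ in Xist and Ddx3y, so they hold different animals, and genotype and animal cannot be told apart. Whether those animals carry the same copies of the Trav genes was not tested, and it bears on what the usage of these rows means.

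**Figure D4:**
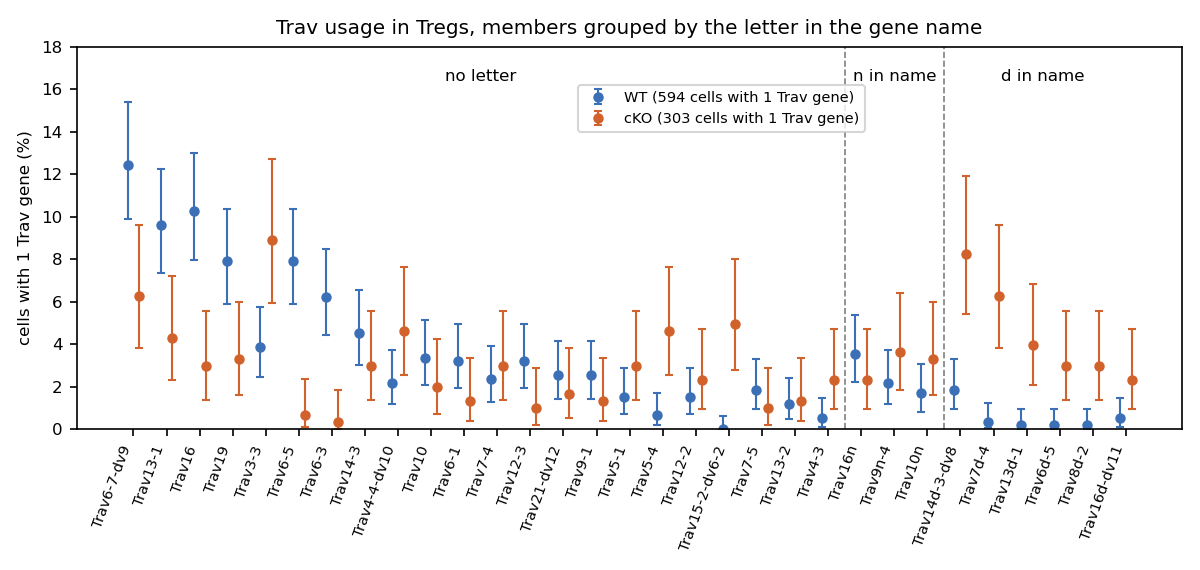
Share of each of the 31 Trav members among Tregs that show exactly 1 Trav gene, by library, with members grouped by the letter in the gene name and ordered by cells; bars are exact 95% intervals of counting error. All 6 members with a d lie higher in cKO, and of the 8 most used members without a letter all but Trav3-3 lie higher in WT.

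The row of Trav15-2-dv6-2, a segment that can join to alpha or to delta, had UMIs in cKO only. Its copy Trav15d-2-dv6d-2 differs from it at 16 of 260 bases and is identical to Trav15n-2 over 260 bases. Both copies had no window of their own and 0 UMIs, so use of those copies could not be judged in either library. Trav15-2-dv6-2 had 0 UMIs in WT and 58 in cKO Tregs, at least 30-fold higher in CPM against a floor of 3 UMIs over the WT Tregs. The exact 95% lower limit of that ratio, which also takes in the error of the cKO count, was 23.7. The 58 UMIs came from 15 cells, 11 of them with 2 or more, and up to 9 in a cell. Of the 15 cells, 14 had Trac UMIs (7 to 39 each) and 1 had 30 Trdc UMIs and no Trac. None of the 14 cells with at least 3 Trbc UMIs had more Trbc1 than Trbc2 (0%, 0 to 23.2), against 27.3% of all cKO Tregs. Foxp3 was seen in 4 of the 15 cells, 26.7%, and in 34.3% of all cKO Tregs. The gene was named after its values were seen. Over all cells Trav15-2-dv6-2 had 0 UMIs in WT and 59 in cKO, and so became a member through the cKO library. No other member was at 0 UMIs in WT.

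In CD8 cells the leading Trav gene of the cKO library was Trav16n, with 12 of 53 cells, 22.6% (12.3 to 36.2), and 33 UMIs, against 3 of 35 WT cells, 8.57% (1.80 to 23.1). Of the 12 cells, 8 had low Treg markers. With high Treg markers Trav16n had 3 of 32 WT and 4 of 29 cKO cells. All 12 cKO cells had more Trbc1 than Trbc2 UMIs, against 25.1% of the cKO CD8 cells with at least 3 Trbc UMIs. Trav16 had 3 WT and 5 cKO cells, Trav3-3 4 and 2, Trav13-1 2 and 3, and Trav5-4 3 and 2. At least 2-fold higher usage was seen for 9 of 31 members and lower for 8, 29% and 25.8%; of the 9, 6 rested on 1 or 2 cKO cells.

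As levels, most members were too low to compare with other genes. In Tregs 10 of 41 members reached a mean of 1 CPM. Of these, 1 was at least 2-fold higher in cKO (Trav15-2-dv6-2) and 3 at least 2-fold lower (Trbv3, Trav6-7-dv9 and Trav19), on the log2(CPM + 1) scale. The minimum level bears on these counts. Trav15-2-dv6-2, at 0 CPM in WT and 2.27 in cKO, reached it through cKO, and Trbv3 and Trav19 through WT. Among all 11354 genes tested, 1.97% were at least 2-fold higher and 2.21% at least 2-fold lower. Trav6-7-dv9 was at 4.40 CPM in WT and 1.06 in cKO (log2 -1.39), Trbv3 at 3.42 and 0.86 (-1.25) and Trav19 at 2.06 and 0.39 (-1.14). The median log2 difference of the 10 was -0.72, beside -0.04 for all genes tested. With a pseudocount of 5 CPM 0 members passed in either direction. In CD8 cells 7 members were tested: 1, Trav16n, was higher (0.70 to 6.46 CPM, log2 2.14) and 0 lower, beside 1.75% and 5.72% of 11172 genes. Of the 33 cKO UMIs of Trav16n, 25 came from 8 cells with low Treg markers. In CD8 cells with high Treg markers Trav16n was at 0.73 CPM in WT and 2.46 in cKO.

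None of the 4 CD3 genes (Cd3d, Cd3e, Cd3g, Cd247), the first 3 of which the cell rule used, and none of the signalling genes Lck, Fyn, Zap70, Lat, Lcp2, Plcg1 and Cd4 was 2-fold apart in Tregs. The farthest was Cd247, the zeta chain that carries the signal inward, at 108 CPM in WT and 194 in cKO (log2 0.84). Of 7 constant genes 5 were tested and 2 were at least 2-fold higher in cKO Tregs, both of the gamma-delta receptor: Trdc (1.61 and 10.5 CPM) and Tcrg-C1 (0.20 and 1.88). Those Trdc UMIs came from 10 WT and 19 cKO Tregs. The 6 gamma-delta markers summed to 2.92 and 14.3 CPM, and their part in V gene detection was not tested. Rag1, Rag2 and Dntt, which carry out joining in the thymus, were all below the minimum level in Tregs. In CD8 cells Dntt passed it with 9 UMIs in each library.

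Cells with UMIs of 2 or more Trbv genes were counted as a possible sign of 2 cells in a droplet, since a T cell normally expresses a single beta chain. There were 5 such cells among 383 Trbv-positive WT Tregs, 1.31% (0.425 to 3.02), and 5 among 125 in cKO, 4% (1.31 to 9.09), a difference of 2.69 points (-0.16 to 7.77). In CD8 cells there were 2 of 37 in WT, 5.41% (0.661 to 18.2), and 0 of 44 in cKO (at most 8.04% by the exact interval). Of these, 1 WT CD8 cell showed 3 Trbv genes (Trbv1, Trbv12-2 and Trbv19), with 27 Cd8a and Cd8b1 UMIs and a Treg sum of 31. The other had 33 and 6. The WT Treg with Trbv13-2 and Trbv20 held 16 UMIs of macrophage markers, and the other cells at most 1. In all 12 cells the lower Trbv gene had a single UMI. With 2 UMIs required for detection there were 0 in either library and class.

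In Tregs most of these cells were deeper than the class median, but not all. The 5 WT Tregs had 5869, 12615, 34177, 34710 and 41416 UMIs, with a median of 34177 against 11251 for Tregs with 1 Trbv gene and 8434 for those with none. The 5 cKO Tregs had 7155, 7689, 14232, 16732 and 23745 UMIs, a median of 14232 against 8212 and 6487. The lowest WT Treg was below its class median of 8667. The 2 WT CD8 cells had 13887 and 21256 UMIs, against medians of 18445 and 19321 for CD8 cells with 1 and no Trbv gene. The highest WT cell, with Trbv3 and Trbv12-2, held 52 Trbc1 and 21 Trbc2 UMIs, and the cKO cell with Trbv12-2 and Trbv13-2 held 0 and 62. No pair repeated within a class of a library; Trbv12-2 with Trbv13-2, neighbours on chromosome 6, occurred once in WT Tregs, once in WT CD8 cells and once in cKO Tregs. By arithmetic from the detection and usage shares, 1.11% of droplets with 2 WT Tregs and 0.155% with 2 cKO Tregs would show 2 Trbv genes. Of all Tregs, 0.151% in WT and 0.17% in cKO showed them. The cKO value rests on 5 cells and lies close to that for a library made only of droplets with 2 Tregs. The arithmetic uses a single detection share per library for cells of all depths, so it gives no count of such droplets. Whether these cells come from droplets with 2 cells was not tested.

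A second Trav gene was more frequent. Of Trav-positive Tregs, 61 of 655 in WT showed it, 9.31% (7.20 to 11.8), and 12 of 315 in cKO, 3.81% (1.98 to 6.56). After thinning to equal depth the shares were 4.74% (2.54 to 7.61) in WT and 1.93% (0.365 to 5.07) in cKO. Those intervals overlap, so no difference between the libraries is claimed at equal depth. Unlike the Trbv pairs, Trav pairs recurred. In WT there were 23 different pairs, and the 8 that occurred more than once held 48 of 63 pair-cells. Trav13-2 with Trav6-7-dv9 was found in 10 Tregs, which is 58.8% of the 17 Trav13-2 carriers, where the product of the carrier shares gives 0.57 cells. Trav13-1 with Trav6-7-dv9 was also found in 10 (product 2.25), Trav6-7-dv9 with Trav19 in 8 (2.01), Trav3-3 with Trav6-7-dv9 in 7 (1.18) and Trav16 with Trav14-3 in 6 (0.74). These products take no account of depth. In the order given, cells of these pairs had median depths of 6336, 12828, 22947.5, 10240 and 10860.5 UMIs, against 8667 in all WT Tregs. In cKO only Trav3-3 with Trav5-4 repeated, in 4 cells, and WT had it in 2. The genes of a repeated pair were not direct neighbours: Trav13-2 and Trav6-7-dv9 lie 74.5 kb apart, and Trav16 and Trav14-3 19.5 kb.

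Pairs of a Trbv and a Trav gene recurred in WT only. In WT Tregs Trbv3 was seen with Trav13-1 in 14 cells, with Trav6-7-dv9 in 13, with Trav19 in 7 and with Trav16 in 4, where the products of the carrier shares give 2.41, 4, 2.16 and 2.59 cells. Trbv2 was seen with Trav12-3 in 6 and with Trav10 in 4, where the products give 0.24 for each. The products take no account of depth. In the order given, cells of the Trbv3 pairs had median depths of 25560.5, 19461, 16298 and 28547 UMIs, against 8667 in all WT Tregs. Those of the Trbv2 pairs had 19343 and 12495. In all, 52 of 89 pair-cells were of a repeated pair. The triple Trbv3, Trav13-1 and Trav6-7-dv9 was in 5 WT Tregs. In cKO 16 pairs were seen, each in 1 cell, on fewer positive cells. Carriers of a repeated pair thus show the same V genes in several cells of 1 library; no junction sequence was used here, so shared clonal origin was not tested.

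The constant gene of the beta chain gave a readout that the V rule did not use. Cells with at least 3 Trbc UMIs were scored by whether Trbc1 exceeded Trbc2. This held for 34.3% (32.7 to 36.0) of WT and 27.3% (25.6 to 29.0) of cKO Tregs. WT carriers of single V genes lay far apart: Trav13-1 60 of 67 cells, 89.6% (79.7 to 95.7), Trbv1 24 of 27, 88.9% (70.8 to 97.6), and Trbv3 83 of 117, 70.9% (61.8 to 79.0), were above the class. Trav16 with 4 of 64, 6.25% (1.73 to 15.2), Trav16n with 0 of 21 (0 to 16.1) and Trav13-2 with 0 of 14 (0 to 23.2) were below. Trav and Trbc genes lie on different chromosomes, so a carrier of a Trav gene can hold either Trbc gene.

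In some WT pairs all scored cells fell on the same side of the Trbc score. All 14 Trbv3 and Trav13-1 cells, all 13 Trbv3 and Trav6-7-dv9 cells and all 10 Trav13-1 and Trav6-7-dv9 cells had more Trbc1. These counts overlap, since the 5 cells with Trbv3, Trav13-1 and Trav6-7-dv9 are in each of them. None of 8 scored Trav13-2 and Trav6-7-dv9 cells and none of 7 Trav3-3 and Trav6-7-dv9 cells did. Other repeated pairs were mixed: more Trbc1 was seen in 6 of 7 Trbv3 and Trav19 cells, 4 of 6 Trbv2 and Trav12-3 cells, 2 of 4 Trbv2 and Trav10 cells, 1 of 4 Trbv3 and Trav16 cells and 1 of 8 Trav6-7-dv9 and Trav19 cells. Trav6-7-dv9 carriers as a whole were in between, 40 of 103, 38.8% (29.4 to 48.9). In cKO the same genes had fewer scored carriers. More Trbc1 was seen in 8 of 21 with Trbv3, 38.1% (18.1 to 61.6), and 8 of 14 with Trav13-1, 57.1% (28.9 to 82.3). It was seen in 2 of 8 with Trbv1, 1 of 8 with Trav16, 2 of 6 with Trav16n and 2 of 4 with Trav13-2, too few to place against the class. Among other cKO carriers it ranged from 0 of 14 with Trav15-2-dv6-2 to 6 of 8 with Trav14-3.

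**Figure D5:**
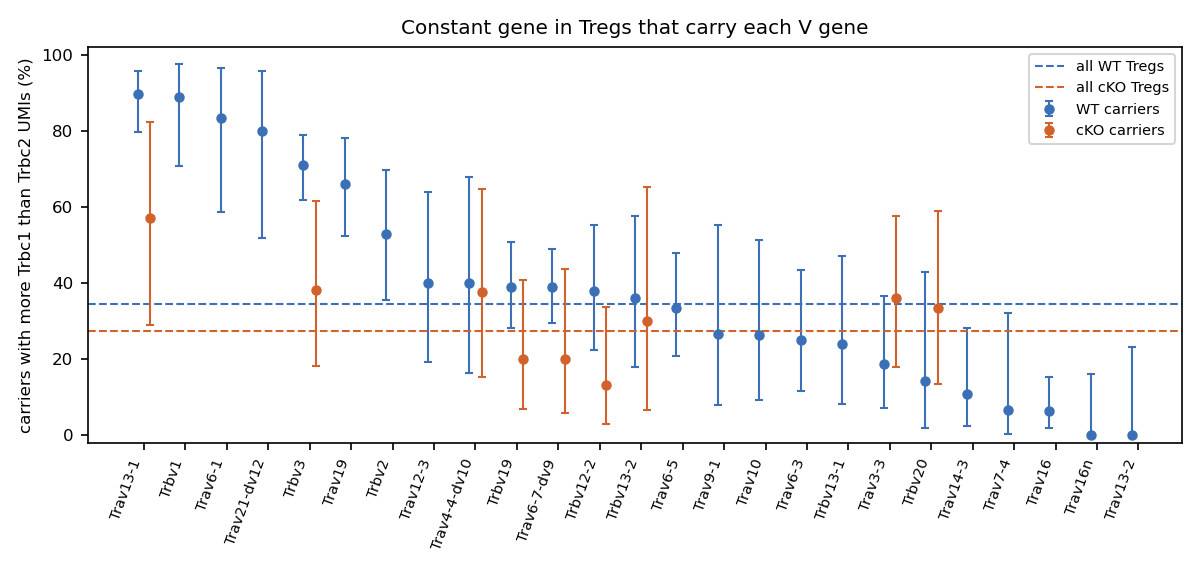
Share of Tregs with more Trbc1 than Trbc2 UMIs among carriers of each V gene (cells with at least 3 Trbc UMIs), by library, with exact 95% intervals; dashed lines mark all Tregs of each library at 34.3% and 27.3%. WT carriers span 0% to 89.6%, far from the WT line at both ends, and the cKO points, drawn only for those genes with at least 10 scored cKO cells, lie between 13% and 57.1%; Trav15-2-dv6-2 at 0 of 14 is not drawn.

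Carriers differed in another gene as well. Igfbp7, which encodes a secreted protein that binds insulin-like growth factors, was chosen after its values were seen. It had a UMI in 413 of 3306 WT Tregs, 12.5% (11.4 to 13.7), and in 33 of 2945 cKO Tregs, 1.12% (0.773 to 1.57). Among WT carriers it was in 34 of 67 with Trav13-1, 50.7% (38.2 to 63.2), in 8 of 17 with Trav13-2, 47.1% (23.0 to 72.2), in 47 of 111 with Trav6-7-dv9, 42.3% (33.0 to 52.1), and in 35 of 119 with Trbv3, 29.4% (21.4 to 38.5). Of the 14 cells with both Trbv3 and Trav13-1, 11 had Igfbp7. It was in 0 of 19 carriers of Trav6-1 (0 to 17.6%) and in 1 of 20 of Trav10 (0.127 to 24.9%). Both intervals include the class share of 12.5%. The carriers are from a single library, so the cells are not replicates of the genotype.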

How the data were processed

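The authors deposited UMI counts, not normalized, for each gene in each barcode. Cell Ranger 5.0.1 made them, per the file headers, and build mm10 is named in the submitters' processing notes. The sources used here do not give read length, intron use or doublet removal. All 163 Trbv and Trav identifiers matched GENCODE M21.

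Cells with at least 500 genes, under 10% mitochondrial UMIs and at least 2 UMIs of Cd3d, Cd3e and Cd3g were T cells. Tregs had a Treg sum of at least 6 and at most 1 Cd8a and Cd8b1 UMI. No doublet caller was run. Thinned shares are the mean over all possible draws of 4000 UMIs per cell. Levels are CPM per class, compared as log2((CPM cKO + 1)/(CPM WT + 1)) for genes whose 2 CPM values average 1 or more, with 2-fold as the call. The effective number has an approximate interval from counting error. Functions were tested on simulated data.

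The genes named were those with the most cells (8 per family in Tregs, 5 in CD8 cells), the 3 highest and 3 lowest usage ratios among genes with at least 30 cells, the threshold neighbours, the receptor genes and the leading pairs; exceptions are stated. Members and lists were chosen with earlier results of these data known. With 1 library per group no p-value was computed. Depth was 49063944 UMIs in WT and 37666195 in cKO. Python 3.11.15, scipy 1.17.1 and pandas 2.3.3 were used.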

Additional observations from a re-analysis of the deposited data

Results flagged for a closer look

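V segments of the gamma and delta chains were outside the comparisons and gave UMIs above the limit that a count of 0 allows (3 counts). Trdv1 had 23 UMIs in 19 WT Tregs and 1 in cKO Tregs. Trdv4 had 6 UMIs in WT and 4 in cKO Tregs. Trgv2 had 11 UMIs in WT and 5 in cKO Tregs, and 83 UMIs in WT and 7 in cKO CD8 cells. The Trgv2 value of the WT CD8 class stands beside Tcrg-C2, a gamma constant gene, at 60.6 CPM in WT and 18 in cKO CD8 cells, while Trdc, the delta constant gene, was at 0.93 and 16.1 CPM there.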

How the results depend on the processing

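Differences are cKO minus WT in percentage points unless stated. Detection in CD8 cells reversed for Trbv, to 3.06, in cells with a Treg sum under 6 (an alternative chosen after seeing the data). With 2 UMIs needed for detection, the differences were -1.21 (Trbv) and -2.09 (Trav) in Tregs and -1.31 and -1.38 in CD8 cells; thinned to 4000 UMIs they were -2.67, -2.93, -1.17 and -0.0694. Without Trbv3, chosen after seeing the data, Trbv detection in Tregs differed by -4.48 and the effective number by 0.19; over all Trbv rows the effective number differed by 3.98. The share of d members differed by 29.1 at 2 UMIs and 18.5 without Trav14d-3-dv8, both chosen after seeing the data. Of members at least 2-fold apart in level, a pseudocount of 5 CPM left 0 higher and 0 lower in Tregs, a minimum of 5 CPM left 0 and 0, and 0 higher in CD8 cells, and no filter gave 5 lower in Tregs and 2 higher and 1 lower in CD8 cells. The cause was fewer or more genes tested for the filters, and for the others was not tested. The remaining 66 alternative values of these results kept within their interval or 1.5 times their count. Of the values for usage by gene and the counts over all genes, 179 did so and 21 moved. At 2 UMIs usage in Tregs differed by -1.40 (-4.96 to 3.77) for Trav6-5 and -16.1 (-23.6 to -7.32) for Trav6-7-dv9. It differed by -8.33 (-19.6 to 27.5) for Trbv12-2, a change of sign, and by 36.6 (7.57 to 69.0) for Trbv20. These Trbv values rest on 48 WT and 7 cKO Tregs with a Trbv gene at 2 UMIs. At 2 UMIs too few cells were left for the effective number.

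No paired analysis was possible because each group has 1 library, and for the same reason no replicate was left out. Usage in CD8 cells rests on few cells, 35 WT and 44 cKO with 1 Trbv gene, and 34 of those 35 WT cells have high Treg markers.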
